A study of Mus musculus with 6 samples.

Results

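The 2'-5'-oligoadenylate synthetase (OAS) family of the mouse was followed in NIH3T3 cells, an established line of mouse embryonic fibroblasts. It was taken as 7 listed gene symbols, Oas1a, Oas1b, Oas1g, Oas2, Oas3, Oasl1 and Oasl2, out of 24062 genes in the counts. All 7 symbols had a row and reads in at least 4 libraries. The cells carried siRNA against SPT6, a histone chaperone that travels with elongating RNA polymerase II, or a negative control (NC) siRNA for 48 h. They then received mouse recombinant IFN-beta at 100 units/ml for 4 h or were left untreated. There were 2 libraries with SPT6 siRNA and IFN-beta, 2 with control siRNA and IFN-beta, 1 with SPT6 siRNA alone and 1 with control siRNA alone. The labels do not say that replicates came from separate cultures, and the spread behind each p-value may therefore be technical. The design rests on 1 siRNA for SPT6 and 1 cell line.

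OAS proteins bind double-stranded RNA, and the catalytic ones then join ATP into 2-5A, short chains of adenosine with 2'-5' links. 2-5A is the second messenger of this antiviral pathway. Type I interferon signals through the receptor chains Ifnar1 and Ifnar2 and the kinases Jak1 and Tyk2 to ISGF3, a complex that holds STAT2 and IRF9 and binds interferon-stimulated response elements of many target genes. Oas1a, Oas1g, Oas2 and Oas3 encode synthetases, and mouse Oasl2 encodes a synthetase with a ubiquitin-like tail. Mouse Oasl1 has lost the synthetase activity and is known for holding back translation of Irf7 mRNA. Oas1b is the flavivirus resistance gene of the mouse, and many laboratory strains carry a truncated allele.

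The family lay in 2 clusters on chromosome 5 in the GENCODE M21 annotation of GRCm38. Oasl2 (chr5:114896936-114912234) and Oasl1 (chr5:114923240-114937915) stood side by side on the plus strand. The other cluster held Oas2 (chr5:120730333-120749853), Oas3 (chr5:120753098-120777661), Oas1b (chr5:120812635-120824163), Oas1g (chr5:120876142-120887613) and Oas1a (chr5:120896256-120907521), all on the minus strand except Oas1b. GENCODE classes Oas1b as a polymorphic pseudogene. The paralogs Oas1c, Oas1d, Oas1e, Oas1f and Oas1h lie in the same cluster.

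Promoters of 5 of the 7 genes, Oas1a, Oas1g, Oas3, Oasl1 and Oasl2, were in the RefSeq table for GRCm38.p6, each window running from 250 bases before the start to 50 after it. Oas1b and Oas2 had no window there. The core of the interferon-stimulated response element, GAAA, any 2 letters and GAAA again, was searched on both strands and was present in 3 of the 5 windows, against 3.44% of all 32851 windows. The longer form, the same core followed by CT, was in the windows of Oas1a and Oas1g, against 0.271% of all windows. The 120 bases before the start are shown for the genes with a match and for Oas1c, 5' to 3' on the strand of the gene, because the element that most of them share is the part to compare. Capitals mark every base inside a match to the core on either strand. The windows are chr5:120907526-120907645 for Oas1a, chr5:120887614-120887733 for Oas1g, chr5:120777660-120777779 for Oas3 and chr5:120812515-120812634 for Oas1c, all on the minus strand.
Oas1a: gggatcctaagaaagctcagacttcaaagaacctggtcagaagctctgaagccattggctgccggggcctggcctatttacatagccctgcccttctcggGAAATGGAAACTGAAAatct
Oas1g: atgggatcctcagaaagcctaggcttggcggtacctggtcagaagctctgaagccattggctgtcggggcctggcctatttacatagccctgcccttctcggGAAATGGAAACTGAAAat
Oas3: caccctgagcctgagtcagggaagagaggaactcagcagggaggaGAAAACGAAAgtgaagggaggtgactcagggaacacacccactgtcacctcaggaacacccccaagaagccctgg
Oas1c: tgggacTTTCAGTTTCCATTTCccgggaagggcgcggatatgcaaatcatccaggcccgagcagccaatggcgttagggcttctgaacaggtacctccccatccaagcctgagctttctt
Oas1a and Oas1g carried the same 16 bases, made of 2 overlapping matches, which began at position -20 in Oas1a and -18 in Oas1g. The single match of Oas3 began at position -75. In Oas1c the same 16 bases lay on the opposite strand, and the 120 bases shown are the whole interval between Oas1c and Oas1b, which point away from each other. The matches lay 7 to 22 bases before the annotated start of Oas1b. Neither Oasl1 nor Oasl2 had the core in its window, and nor did Oas1f or Oas1h. The letters TTCNNNGAA, an element bound by STAT dimers, matched 1 of the 5 windows, that of Oas1a, against 8.3% of all windows. A match is a run of letters and does not show binding, and its absence says only that the letters are not in this window.

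Without IFN-beta the family was close to the detection limit. The 7 genes together had 15 counts with SPT6 siRNA and 17 counts with control siRNA. That is 1.8 CPM with SPT6 siRNA and 1.4 CPM with control siRNA, where CPM is the read count per 1000000 gene counts of the library, adjusted by TMM factors. Oas3 had the most reads, 7 in each untreated library, and Oas2 and Oasl1 had 0 in both. A count of 0 allows up to 3 counts, or 0.36 CPM with SPT6 siRNA and 0.246 CPM with control siRNA, counting error only.

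With IFN-beta all 7 genes were detected in all 4 libraries. Oasl2 stood at 127 and 45.6 CPM with SPT6 siRNA and IFN-beta and at 187 and 77.1 CPM with control siRNA and IFN-beta. Untreated cells had 0.36 CPM of Oasl2 with SPT6 siRNA and 0.411 CPM with control siRNA. Every IFN-beta library was far above both untreated ones, and replicate 1 was the higher library under each siRNA. Oas1b stood at 33.3 and 15.2 CPM with SPT6 siRNA and IFN-beta, against 46.4 and 21.7 CPM with control siRNA and IFN-beta. Its untreated values were 0.479 CPM with SPT6 siRNA and 0.164 CPM with control siRNA. The order of the 4 IFN-beta libraries was that of Oasl2, with control replicate 1 on top and SPT6 replicate 2 at the bottom.

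Among the other synthetases, Oas2 stood at 13.8 and 6.35 CPM with SPT6 siRNA and IFN-beta and at 24.6 and 9.55 CPM with control siRNA and IFN-beta, and was not detected untreated. Oas1a stood at 7.85 and 2.96 CPM with SPT6 siRNA and IFN-beta, against 11.1 and 3.86 CPM with control siRNA and IFN-beta, with 0.12 CPM with SPT6 siRNA alone and 0.164 CPM with control siRNA alone. Oas3 stood at 7.74 and 3.22 CPM with SPT6 siRNA and IFN-beta, against 8.43 and 4.03 CPM with control siRNA and IFN-beta, with 0.839 CPM with SPT6 siRNA alone and 0.575 CPM with control siRNA alone. Oas3 was the gene with the most untreated reads. Oas1g and Oasl1 had the fewest reads with IFN-beta. Oas1g had 2.34 and 0.435 CPM with SPT6 siRNA and IFN-beta, against 3.16 and 0.949 CPM with control siRNA and IFN-beta, and 1 untreated read in all. Oasl1 had 2.45 and 0.435 CPM with SPT6 siRNA and IFN-beta, against 3.76 and 1.42 CPM with control siRNA and IFN-beta. For both genes the second SPT6 library rested on 5 reads.

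**Figure D1:**
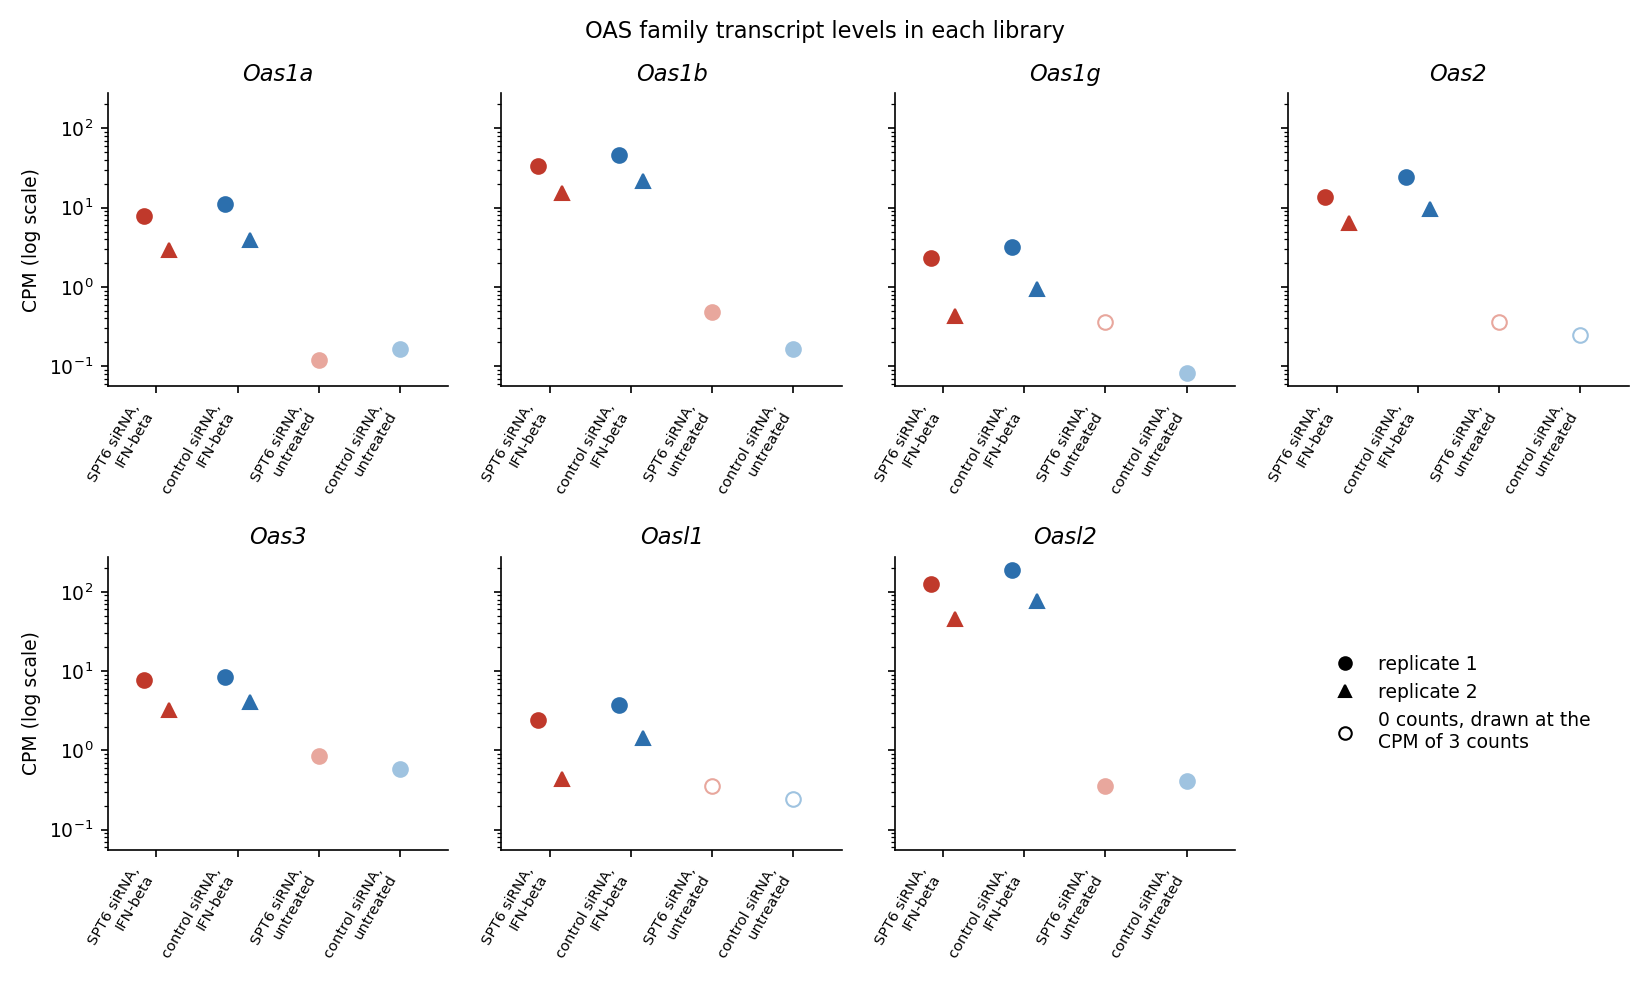
Transcript levels of the 7 OAS genes in each of 6 libraries, in CPM on a log scale, with 1 panel per gene and columns for SPT6 siRNA with IFN-beta, control siRNA with IFN-beta, SPT6 siRNA untreated and control siRNA untreated. Circles are replicate 1 and triangles replicate 2, and open symbols are libraries at 0 counts drawn at the CPM of 3 counts. In each panel the IFN-beta libraries lie above the untreated ones, and replicate 2 lies below replicate 1.

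Levels of different genes were compared per kilobase of annotated exon. Oasl2 and Oas1b made up most of the summed level of the 7 genes in every IFN-beta library. Oasl2 held 38.5% to 43.1% of it and Oas1b 34.3% to 41.1%. Oas1a held 7.12% to 8.86% and Oas2 6.58% to 8.13%, while Oas3, Oas1g and Oasl1 held 0.896% to 2.45% each. Oasl2 averaged 13.6 ± 9.04 CPM per kb with SPT6 siRNA and IFN-beta and 20.7 ± 12.2 CPM per kb with control siRNA and IFN-beta (SD, n = 2 each). Oas1b averaged 12.2 ± 6.43 CPM per kb with SPT6 siRNA and IFN-beta and 17.1 ± 8.77 CPM per kb with control siRNA and IFN-beta (SD, n = 2 each). Both genes fell together from replicate 1 to replicate 2, so these SDs are not the spread of their difference, and their order was not tested. Within libraries Oasl2 was the higher of the pair except in SPT6 replicate 2, where Oas1b had 7.64 and Oasl2 7.16 CPM per kb. Oas1a and Oas2 also changed places between libraries, as did Oas3, Oas1g and Oasl1. With the length of the longest transcript in place of all exons, Oasl2 was first in all 4 libraries, at 53.8% to 58.5%.

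**Figure D2:**
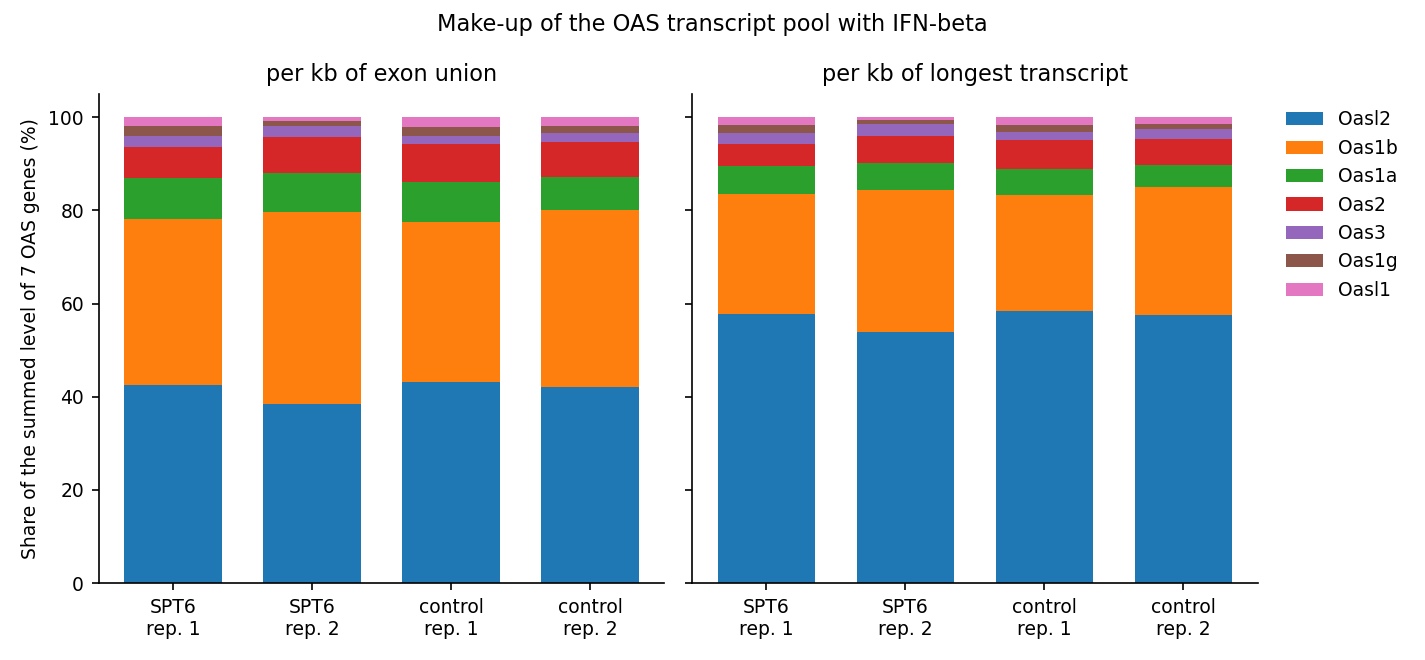
Share of each OAS gene in the summed level of all 7, in percent, in the 4 IFN-beta libraries, with SPT6 siRNA on the left of control siRNA; levels are CPM per kb of all annotated exons in 1 panel and per kb of the longest transcript in the other. The bars are close to equal between libraries whose summed CPM ran from 74.2 to 284, and Oasl2 with Oas1b fill most of each bar.

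The counting touches Oas1a and Oas1g most. Of the 50-base stretches of the Oas1a transcript, 56.9% were also in Oas1g, and of those of Oas1g, 54.1% were in Oas1a. For Oas1b the share found in another family gene was 1.34%, and for Oas2, Oas3, Oasl1 and Oasl2 it was 0. Reads that fit more than 1 place were 27.9% to 31.3% of all reads and are not in the gene counts, so Oas1a and Oas1g are uncertain and their levels may be understated. The strand setting of the counting was not given. Exons of Oasl1 overlap those of the antisense gene Gm13822 by 38 bases, and the exons of no other member overlap those of another gene.

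The response to IFN-beta was large in both siRNA groups and yet passed the edgeR test of the 4 group means, without a replicate block, for no member. Under SPT6 siRNA the mean IFN-beta level of Oasl2 was 240 times the untreated level (95% interval 82.2 to 1165, exact, for the counting error of the untreated reads), and under control siRNA 321 times (138 to 990). Oas1b stood at 50.6 times under SPT6 siRNA (19.8 to 186) and at 207 times under control siRNA (57.4 to 1713), where its untreated count was 2. Oas1a stood at 45.1 times under SPT6 siRNA (8.09 to 1780) and 45.6 times under control siRNA (12.6 to 377), over 1 and 2 untreated reads. The ratios of these 3 genes rest on 1 to 5 untreated reads, which sets the width of their intervals. Each is a mean of replicates that lie apart: the ratio of Oasl2 was 354 in replicate 1 and 127 in replicate 2 under SPT6 siRNA, and 455 and 188 under control siRNA. Both untreated libraries carry replicate number 1. Each ratio or bound by replicate 2, here and below, therefore sets a library of number 2 against an untreated library of number 1. A difference between numbers and a difference in response cannot be told apart there.

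For genes at 0 untreated counts only a lower bound can be given, against 3 counts per library. Those 3 counts are 0.36 CPM with SPT6 siRNA and 0.246 CPM with control siRNA. Bounds under SPT6 and control siRNA therefore differ in part by library depth. By the mean of the IFN-beta libraries, Oas2 was at least 28-fold higher with IFN-beta under SPT6 siRNA and at least 69.3-fold higher under control siRNA. By replicate 2 alone these bounds were 17.7 under SPT6 siRNA and 38.8 under control siRNA. Oasl1 was at least 4.01-fold higher under SPT6 siRNA, with bounds of 6.8 by replicate 1 and 1.21 by replicate 2. Under control siRNA it was at least 10.5-fold higher, with bounds of 15.3 by replicate 1 and 5.78 by replicate 2. Oas1g was at least 3.86-fold higher under SPT6 siRNA, with bounds of 6.52 by replicate 1 and 1.21 by replicate 2. Under control siRNA its ratio was 25 (4.49 to 988), and it was 38.5 by replicate 1 and 11.6 by replicate 2. Replicate 2 thus leaves Oasl1 and Oas1g under SPT6 siRNA with bounds close to 1. Oas3 had the smallest ratio among the members with untreated reads, 6.53 under SPT6 siRNA (3.17 to 16.2) and 10.8 under control siRNA (5.26 to 27). All 7 genes passed the filter on low counts only through their IFN-beta libraries, so that they differ from untreated cells follows in part from the filter.

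In the edgeR quasi-likelihood test with Benjamini-Hochberg adjustment over 13185 genes, 0 of 7 members were called under SPT6 siRNA, where 0.0455% of all tested genes were called higher. Under control siRNA 0 of 7 were called, against 0.137% of all tested genes called higher. At an unadjusted p under 0.05, 6 of 7 members, all but Oas1g, were higher under SPT6 siRNA (3.84% of all tested genes) and 7 of 7 under control siRNA (5.29%). DESeq2 called 3 of 7 under SPT6 siRNA, Oas1b, Oas2 and Oasl2, where it called 0.948% of all tested genes higher. Under control siRNA it called those 3 genes with Oas1a and Oas3, 5 of 7, against 1.46% of all tested genes. Oas1b came closest in edgeR, with a log2 difference of 5.63 ± 1.02 (SE) and an edgeR adjusted p of 0.357 under SPT6 siRNA. Under control siRNA its log2 difference was 7.61 ± 1.13 (SE) with an edgeR adjusted p of 0.156. Without SPT6 replicate 1, which enters the shared estimate of spread, Oas1b was called under control siRNA, the only member called in either response when 1 library was left out. Oasl2 had a log2 difference of 7.87 ± 1.48 (SE, edgeR adjusted p = 0.516) under SPT6 siRNA and of 8.29 ± 1.41 (SE, 0.28) under control siRNA. The spread behind these tests came from the replicate IFN-beta libraries alone (2 residual degrees of freedom), and single untreated libraries were taken to vary as much.

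The replicate IFN-beta libraries lay far apart for these genes. The summed CPM of the 7 genes in replicate 2 was 0.381 of that in replicate 1 with SPT6 siRNA and IFN-beta (95% interval 0.351 to 0.414, exact, counting error only) and 0.417 of it with control siRNA and IFN-beta (0.395 to 0.441). All 7 genes were lower in replicate 2 in both groups, with ratios of 0.178 to 0.461 under SPT6 siRNA and 0.3 to 0.479 under control siRNA. The median log2 ratio of replicate 2 to replicate 1 was -1.36 over the members and -0.00 over all tested genes under SPT6 siRNA, and -1.30 and 0.02 under control siRNA. Of all tested genes, 2.15% lay below the member median under SPT6 siRNA and 2.33% under control siRNA. No test was made of this, since the numbers name libraries and not conditions. Stat2 and Irf9, genes of ISGF3, had ratios of 0.672 and 0.771 under SPT6 siRNA and 0.706 and 0.71 under control siRNA. Those ratios are less far below 1 than that of any OAS gene in the same siRNA group. Some other interferon-induced genes had ratios within the OAS range. Dhx58 had 0.348 under SPT6 siRNA and 0.424 under control siRNA, and Zbp1 had 0.368 and 0.382. Gbp6 had 0.296 under SPT6 siRNA and 0.347 under control siRNA. Gbp6 was picked for a profile near that of the members over these libraries, so its likeness follows in part from that choice. Eif2ak2, Adar, Ifih1, Ddx58 and Tlr3 lay above the OAS range, at 0.541 to 0.84 under SPT6 siRNA and 0.631 to 0.871 under control siRNA. Mb21d1 was higher in replicate 2, with ratios of 1.25 under SPT6 siRNA and 1.4 under control siRNA.

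The series title links SPT6 to interferon-stimulated transcription, the question that the 4 IFN-beta libraries bear on. The 7 genes together had 195 and 74.2 CPM with SPT6 siRNA and 284 and 119 CPM with control siRNA, all with IFN-beta. Within replicate number 1 the summed level with SPT6 siRNA was 0.685 of that with control siRNA (95% interval 0.648 to 0.724, exact, counting error only), and within number 2 it was 0.626 (0.577 to 0.678). All 7 genes were lower with SPT6 siRNA within both numbers, as were 36.5% of all tested genes. The groups nonetheless overlapped for every member, because SPT6 replicate 1 lay above control replicate 2. So 0 of 7 members were non-overlapping and lower, against 21.3% of all tested genes.

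Within the numbers, Oasl2 had ratios of SPT6 to control siRNA of 0.681 (0.636 to 0.729) and 0.592 (0.534 to 0.655). Oas1b had 0.718 (0.626 to 0.822) and 0.701 (0.582 to 0.841), and Oas2 had 0.559 (0.454 to 0.685) and 0.664 (0.497 to 0.881). For these 3 genes both counting intervals lay below 1. Oas1a had 0.705 (0.528 to 0.934) in number 1 and 0.767 (0.491 to 1.18) in number 2, the second of which includes 1. Oasl1 had 0.65 (0.382 to 1.08) and 0.305 (0.091 to 0.816), and Oas1g had 0.742 (0.426 to 1.26) and 0.458 (0.131 to 1.31). Oas3 was nearest to 1, at 0.919 (0.677 to 1.24) and 0.797 (0.519 to 1.21), and both of its intervals include 1.

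**Figure D3:**
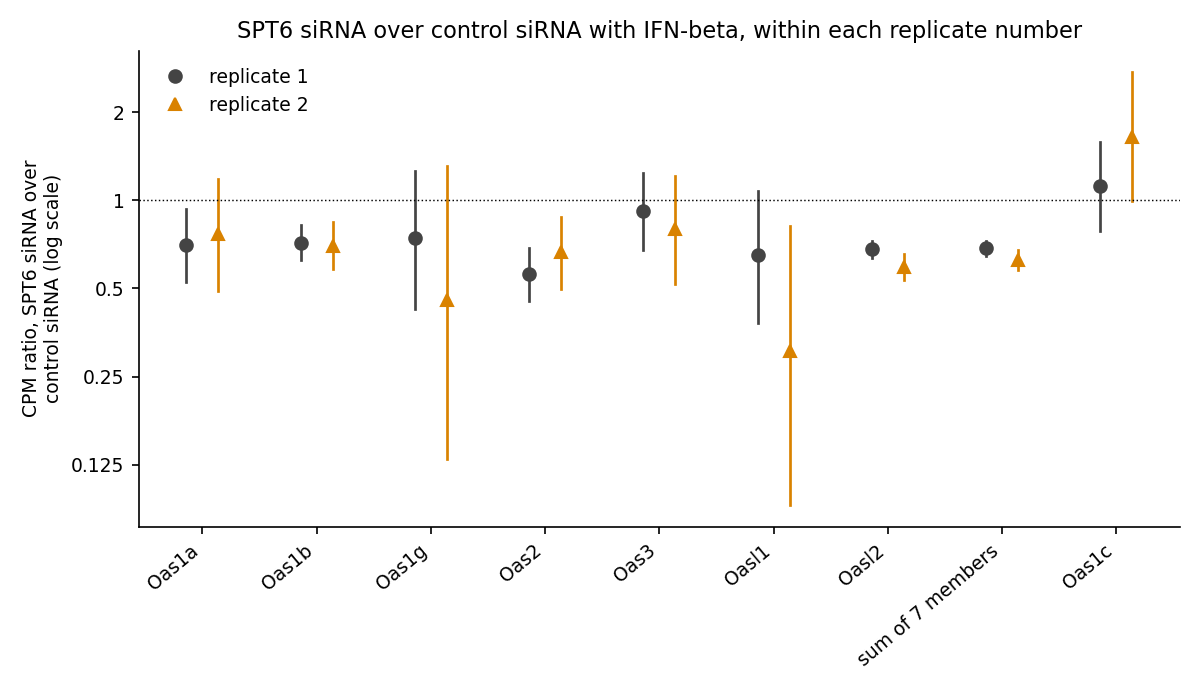
Ratio of CPM with SPT6 siRNA to CPM with control siRNA in IFN-beta-treated cells, on a log scale, within replicate number 1 and within number 2; bars are exact 95% intervals that cover counting error only, and the dotted line marks a ratio of 1. All OAS points lie below 1, from 0.305 for Oasl1 to 0.919 for Oas3, and both Oas1c points lie above it.

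The edgeR test set the siRNA groups against the spread between their replicates, without a replicate block. It called 0 of 7 members, and 0% of all tested genes. Calls with a block differed and are given in the closing section on processing. At an unadjusted p under 0.05 edgeR had 1538 genes (11.7%) and no member among them. DESeq2 called 0.44% of all tested genes and no member. The 7 log2 differences, SPT6 minus control siRNA, ran from -0.86 ± 0.84 (SE) for Oasl1 to -0.19 ± 0.54 for Oas3, with edgeR adjusted p-values of 0.73 and 0.915. That of Oasl2 was -0.61 ± 0.64 (SE, edgeR adjusted p = 0.754), of Oas1b -0.49 ± 0.50 (SE, 0.742) and of Oas2 -0.77 ± 0.57 (SE, 0.632). Oas1a had -0.47 ± 0.65 (SE, 0.813) and Oas1g -0.57 ± 0.90 (SE, 0.839). All 7 were below 0, with a median of -0.57, against 6858 of 13185 tested genes below 0 and a median of -0.02. Without control replicate 1, which leaves both SPT6 libraries against control replicate 2 alone, the member median was 0.17 and 6 of 7 differences were above 0. Without SPT6 replicate 2 the median was -0.04, with Oas1a, Oas1g and Oas3 above 0; without SPT6 replicate 1 it was -1.44, and without control replicate 2 it was -1.11.

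Summed over each list, macrophage, endothelial and epithelial markers were higher with SPT6 siRNA than with control siRNA, both with IFN-beta and untreated. The fibroblast sum was lower, and single markers within the lists differed in direction. The summed CPM of the macrophage list, with 6 of 7 markers in the counts, was 15.9 to 18.3 with SPT6 siRNA and IFN-beta and 7.71 to 8.95 with control siRNA and IFN-beta. In untreated cells it was 15.1 with SPT6 siRNA and 11 with control siRNA. Cd68, a lysosomal protein of macrophages, accounts for much of that difference, at 7.74 and 9.91 CPM with SPT6 siRNA and IFN-beta and 2.71 and 2.19 CPM with control siRNA and IFN-beta. Cd14 had 4.59 and 5.04 CPM with SPT6 siRNA and IFN-beta and 3.16 and 4.03 CPM with control siRNA and IFN-beta. Csf1r had 1.83 and 3.22 CPM against 1.73 and 1.07 CPM in the same groups. Untreated, both were lower with SPT6 siRNA, Cd14 at 5.39 against 5.91 CPM and Csf1r at 1.44 against 1.72 CPM. Itgam had 0.713 and 0.0869 CPM with SPT6 siRNA and IFN-beta and 0 CPM with control siRNA and IFN-beta. Lyz2 had 1.02 and 0 CPM with SPT6 siRNA and IFN-beta and 1.13 and 0.356 CPM with control siRNA and IFN-beta. Ptprc, the pan-leukocyte marker, had at most 3 counts in every library. All 8 fibroblast markers had 10 or more counts in every library. Their summed CPM was 10947 to 11106 with SPT6 siRNA and IFN-beta and 14281 to 16598 with control siRNA and IFN-beta, and in untreated cells 12267 with SPT6 siRNA and 16052 with control siRNA. The 4 endothelial markers summed to 2.14 to 4.96 CPM with SPT6 siRNA and IFN-beta and to 0.83 to 1.2 CPM with control siRNA and IFN-beta, and to 2.4 CPM with SPT6 siRNA alone and 1.48 CPM with control siRNA alone. Vwf had 1.73 and 4.09 CPM of this with SPT6 siRNA and IFN-beta and 0.828 and 0.356 CPM with control siRNA and IFN-beta, while Pecam1 had 0.306 and 0.435 CPM with SPT6 siRNA and IFN-beta and 0.376 and 0.356 CPM with control siRNA and IFN-beta. Cdh5 had 0.102 and 0.348 CPM with SPT6 siRNA and IFN-beta and 0 and 0.0593 CPM with control siRNA and IFN-beta. Kdr, also of this list, had at most 3 counts in every library. The 5 epithelial markers summed to 0.917 to 2.43 CPM with SPT6 siRNA and IFN-beta and to 0.475 to 0.602 CPM with control siRNA and IFN-beta, and to 0.839 CPM with SPT6 siRNA alone and 0.246 CPM with control siRNA alone. Ovol1 had 2 and 17 counts with SPT6 siRNA and IFN-beta and 0 in the other 4 libraries. Cdh1 had 0.408 and 0.522 CPM with SPT6 siRNA and IFN-beta, against 0.451 and 0.415 CPM with control siRNA and IFN-beta. Untreated, Cdh1 was all of the sum with SPT6 siRNA, on 7 reads, and had 0.164 CPM with control siRNA, on 2 reads. Krt8 and Krt18 had at most 3 counts in every library. Epcam was at 0 in every library. The part of these markers in the OAS values was not tested. In bulk RNA, fewer responding cells and less OAS RNA per cell cannot be told apart.

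Whether the IFN-beta response itself differed between siRNAs was tested as the difference of the 2 responses. edgeR called 0 of 7 members and 0% of all tested genes, DESeq2 also called none, and 50 genes (0.379%), none of them a member, had an unadjusted edgeR p under 0.05. The difference, SPT6 minus control siRNA, was -1.98 ± 1.52 for Oas1b, -0.72 ± 1.25 for Oas3, -0.42 ± 2.04 for Oasl2 and -0.05 ± 2.0 for Oas1a (log2, SE from the errors of both responses), each at an edgeR adjusted p of 1. Oas1g, Oas2 and Oasl1 have an untreated library at 0 and no error for this value. Between the untreated libraries, with 1 library a group and no test, 0 of 7 members were past 2-fold either way on log2 CPM with a prior count of 2, against 4.54% of all tested genes. In plain CPM Oas1b, with 4 reads under SPT6 siRNA and 2 under control siRNA, had a ratio of 2.92 (0.418 to 32.3, exact, counting error only). The summed untreated CPM with SPT6 siRNA was 1.29 of that with control siRNA (0.599 to 2.74, exact, counting error only).

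Among other genes of the 2-5A pathway were Pde12 and Akap7, whose products degrade 2-5A, and Abce1, a ribosome recycling factor also known to act in this pathway. Of these 3, edgeR called 0 in each response and between siRNAs. Their median log2 responses were 0.29 under SPT6 siRNA and 0.44 under control siRNA, against 0.01 under SPT6 siRNA and -0.01 under control siRNA over all tested genes. Abce1 had the most reads of them, at 343 and 321 CPM with SPT6 siRNA and IFN-beta and 361 and 467 CPM with control siRNA and IFN-beta, against 248 CPM with SPT6 siRNA alone and 262 CPM with control siRNA alone.

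Of 6 genes of the receptor, its kinases and ISGF3, edgeR called 0 under SPT6 siRNA or between siRNAs and 1, Irf9, under control siRNA. The log2 response of Irf9 was 3.13 ± 0.37 under SPT6 siRNA (SE, edgeR adjusted p = 0.071) and 3.22 ± 0.36 under control siRNA (SE, edgeR adjusted p = 0.0436). Stat2 had 2.60 ± 0.37 under SPT6 siRNA and 2.97 ± 0.37 under control siRNA (log2, SE). Ifnar1, Ifnar2, Jak1 and Tyk2 lay between -0.26 and 0.15 under SPT6 siRNA and between -0.35 and 0.08 under control siRNA. The 7 other binders of double-stranded RNA (Eif2ak2, Adar, Ifih1, Ddx58, Dhx58, Tlr3 and Zbp1) were all above 0, with median log2 responses of 3.08 under SPT6 siRNA and 3.26 under control siRNA, and edgeR called none. DESeq2 called 6 of 7 under SPT6 siRNA and 7 of 7 under control siRNA. Between siRNAs with IFN-beta all 7 of them were below 0, with a median of -0.43, and none was called.

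OASL proteins are also known to act on other sensors: mouse Oasl1 on Irf7 mRNA, and human OASL on RIG-I (Ddx58) and cGAS (Mb21d1). Irf7 was at 36.5 and 22.9 CPM with SPT6 siRNA and IFN-beta and at 47.1 and 31.4 CPM with control siRNA and IFN-beta, with 0.36 CPM with SPT6 siRNA alone and 1.07 CPM with control siRNA alone. Its log2 response was 6.32 ± 0.67 under SPT6 siRNA (SE, edgeR adjusted p = 0.0503), and it rose by 5.19 ± 0.55 under control siRNA (SE, edgeR adjusted p = 0.0432). edgeR called 0 of the 3 partners under SPT6 siRNA or between siRNAs and 1 under control siRNA. The difference between those responses was not called for any of them.

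Most paralogs within the Oas cluster were close to undetected. Oas1d, Oas1e, Oas1f and Oas1h had at most 2 counts in any library and were not tested. Oas1c, next to Oas1b, had 6.32 and 3.13 CPM with SPT6 siRNA and IFN-beta, 5.64 and 1.9 CPM with control siRNA and IFN-beta, and 0.839 CPM with SPT6 siRNA alone and 1.15 CPM with control siRNA alone. Its ratio to untreated was 5.63 under SPT6 siRNA (2.73 to 14) and 3.28 under control siRNA (1.95 to 6), and no edgeR call was made (adjusted p = 0.83 under SPT6 siRNA and 0.658 under control siRNA). Within the replicate numbers Oas1c with SPT6 siRNA was 1.12 (0.786 to 1.59) and 1.65 (0.995 to 2.74) of its level with control siRNA, the other direction from all 7 members, with both intervals including 1. Its log2 difference between siRNAs was 0.33 ± 0.61 (SE, edgeR adjusted p = 0.86), and that it differs from the members was not tested.

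The 8 other genes analysed between the members or within 100 kb of them had almost no reads or log2 responses between -0.74 and 0.27. Rasal1 was at 0 in every library, Dtx1 and Rph3a had at most 3 counts, and the other 5 were tested with 0 calls. The median log2 responses of those 5 were -0.04 under SPT6 siRNA and -0.20 under control siRNA. Ankrd13a, upstream of Oasl2, was at 127 and 146 CPM with SPT6 siRNA and IFN-beta, 97.7 and 113 CPM with control siRNA and IFN-beta, and 127 CPM with SPT6 siRNA alone and 88.8 CPM with control siRNA alone. The gene 2210016L21Rik, downstream of Oasl1, was at 16.9 and 12.8 CPM with SPT6 siRNA and IFN-beta, 18.8 and 17 CPM with control siRNA and IFN-beta, and 24.8 CPM with SPT6 siRNA alone and 20.6 CPM with control siRNA alone.

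**Figure D4:**
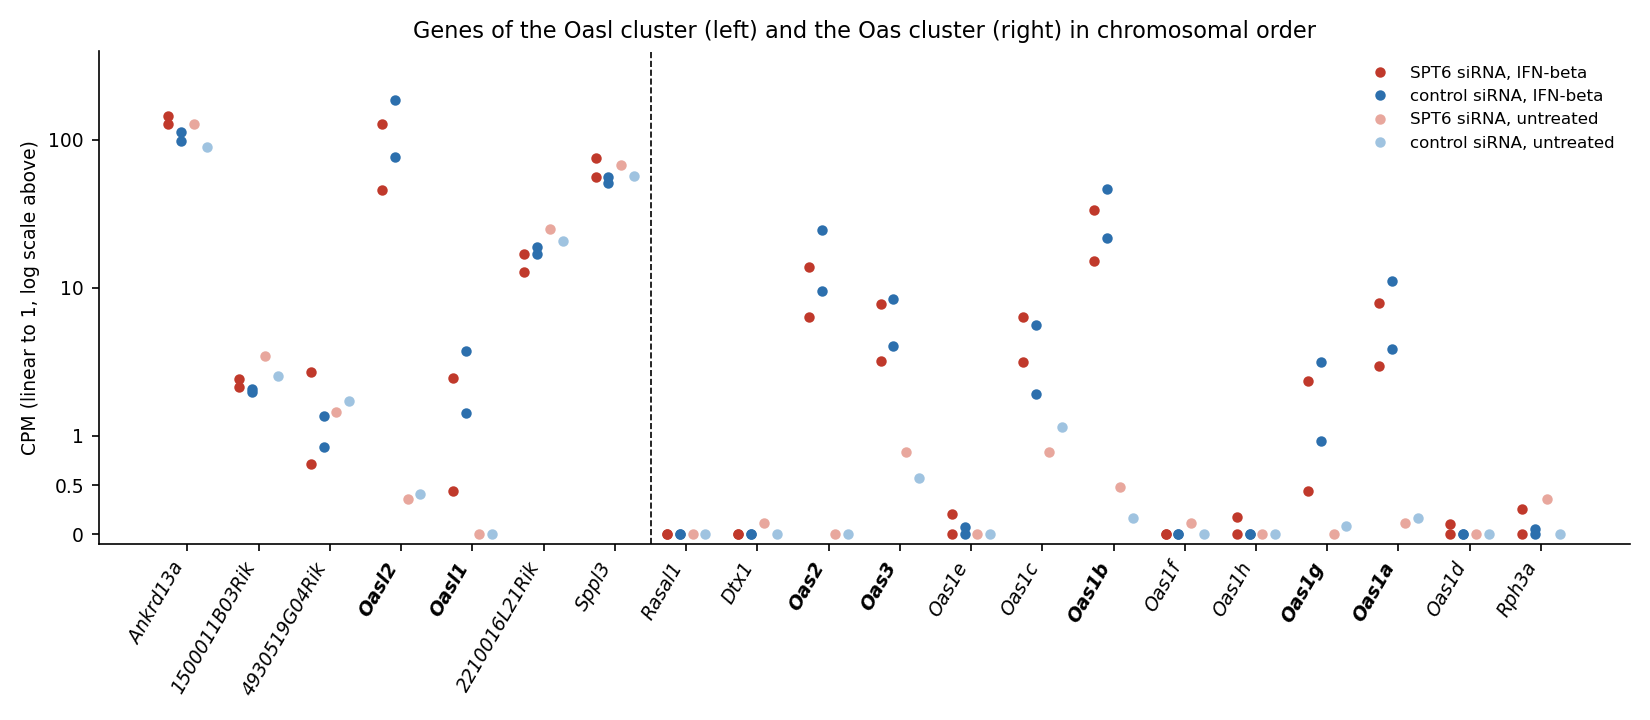
CPM of the genes of the Oasl cluster and of the Oas cluster in chromosomal order, members in bold, in 6 libraries coloured by group; the axis is linear up to 1 CPM and logarithmic above. Members reach from 0.435 to 187 CPM with IFN-beta and stay under 1 CPM untreated. Ankrd13a, within 100 kb of Oasl2 but not next to it, lies between 88.8 and 146 CPM in all libraries.

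The non-member genes whose centred log2 CPM profile over the 6 libraries lay nearest to the mean profile of the 7 members were Isg15, Parp14, Gm12185, Gbp6 and Irgm1. Their root-mean-square distances were 0.173, 0.218, 0.383, 0.421 and 0.425 on the log2 scale, out of 9726 candidates. Members themselves lay at 0.242 (Oas1a) to 1.3 (Oasl2) from that mean. Isg15, a ubiquitin-like modifier, was at 142 and 59.9 CPM with SPT6 siRNA and IFN-beta, 202 and 97.4 CPM with control siRNA and IFN-beta, and 3.36 CPM with SPT6 siRNA alone and 4.19 CPM with control siRNA alone.

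Gene counts per library ran from 7935961 to 17596498, and 32.9% to 38% of all reads fell in genes. Supt6, the targeted gene, was at 108 and 88.3 CPM with SPT6 siRNA and IFN-beta and 177 and 189 CPM with control siRNA and IFN-beta. Untreated cells had 101 CPM with SPT6 siRNA and 175 CPM with control siRNA, so the SPT6 siRNA libraries were the lower ones throughout. For Supt6 the siRNA groups treated with IFN-beta differed by -0.90 ± 0.18 (log2, SE), with an adjusted p of 0.247 in edgeR and 0.0325 in DESeq2.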

How the data were processed

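RNA of 6 NIH3T3 libraries was sequenced in pairs after TRIzol extraction and an Ovation SP Ultralow preparation, per the labels' protocols. The authors deposited raw read counts per gene symbol, 1 file a library. TopHat2 2.1.0, HTSeq 0.6.1p1 and DESeq2 are named, with mm10 and GRCm38, in the submitters' processing notes, without their roles. The annotation and strand setting are not given in the sources used here. Lines that name no gene stayed out of library sizes.

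Genes passed edgeR's filterByExpr with a count minimum of 10, which left 13185. The means of 4 groups were fitted over all 6 libraries with edgeR 4.0.16 (TMM, robust glmQLFit, glmQLFTest) in R 4.3.3, without a replicate block, and calls had an adjusted p under 0.05. Standard errors were taken as the log2 value divided by the root of the F statistic, and for the difference of responses as the root of the summed squares of both errors. DESeq2 1.42.0, RLE size factors, library size only, no filter, a replicate block and leaving out each IFN-beta library were alternatives. The scripts were tested on simulated counts. Intervals and floors cover counting error only. Positions came from GENCODE M21, which matched 22750 of 24062 symbols (94.5%), and promoters from RefSeq. Named genes were the members, the listed pathway genes, Supt6, genes within 100 kb and the 5 nearest profiles among genes averaging log2 CPM 3 or above. The members and lists were chosen with earlier results of these data known. Some genes that this rule names are not reported here.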

Additional observations from a re-analysis of the deposited data

How the results depend on the processing

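All 14 group means of the members with IFN-beta stayed within 1 SD under RLE size factors and under library size only, the latter chosen after seeing the data. TMM factors of the IFN-beta libraries ran from 0.9525 to 1.029, a small range beside these SDs, so this check could hardly have failed. Called genes under SPT6 siRNA, 6 with edgeR, were 12 with library size only, 46 without the filter, 129 with DESeq2 and 9 to 25 when an IFN-beta library was left out, with no member. Called genes under control siRNA, 18 with edgeR, were 77 without the filter, 201 with DESeq2 and 16 to 52 when an IFN-beta library was left out, with 0 to 1 members. DESeq2 called 3 members under SPT6 siRNA and 5 under control siRNA. The member median under SPT6 siRNA, a fitted log2 value of 7.04, was 5.97 with DESeq2 and 5.46 to 7.83 when a library was left out. With genes at 0 untreated counts at their bounds it was 4.81, and 5.42 under control siRNA, where the fitted median was 7.61. Between siRNAs with IFN-beta, 0 called genes became 66 without the filter and 58 with DESeq2.

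Leaving out 1 library moved the member median between siRNAs over -1.44 to 0.17. Single genes ran over -1.35 to 0.48 (Oas1a), -1.18 to 0.17 (Oas1b), -2.21 to 0.52 (Oas1g), -1.44 to 0.08 (Oas2), -0.96 to 0.44 (Oas3) and -1.55 to 0.17 (Oasl2). In the difference of responses Oas1a ran over -0.94 to 0.92 and Oasl2 over -1.38 to 0.37. The cause was not tested. The letters TTCNNNGAA matched 1 window in place of 3, and over 100-base stretches Oas1a shared 40.1% and Oas1g 38.2%.

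The labels do not say that a shared replicate number marks a batch, so the pairing is a number only. Same-numbered IFN-beta libraries deviated together (Pearson r of 0.56 across 13185 genes, which are not independent replicates). With a replicate block edgeR called 545 genes under SPT6 siRNA and 957 under control siRNA, with 7 of 7 members in each (2.96% and 4.83% of all tested genes were called higher). The members passed the filter only through their IFN-beta libraries, so these calls of the responses follow in part from the filter. Both untreated libraries carry replicate number 1, so the block was estimated from the IFN-beta libraries alone. Between siRNAs with IFN-beta the block gave 2638 genes and 3 members, Oas1b (adjusted p = 0.0202, up to 0.994 in other settings), Oas2 (0.0041, up to 0.982) and Oasl2 (0.000109, up to 0.999), where 9.91% of all tested genes were called lower. The difference of responses had 4 genes and no member.

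The untreated values rest on 15 and 17 reads over all 7 genes, from 1 library a group.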
